A study of Mus musculus with 8 samples.

Results

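Chromatin accessibility at 6 genes of interneuron migration was examined by single-nucleus ATAC-seq in the mouse embryonic forebrain: the chemokine receptors Cxcr4 and Ackr3, their ligand Cxcl12, the receptor Erbb4 and its ligands Nrg1 and Nrg3. The members were the called peaks that overlapped a gene body or the 20 kb upstream of it on GRCm38, merged over samples into elements. This gave 373 elements of 292495 in all, of which 45 of 68274 had a peak in every sample and entered the main tests. The samples were wild-type brain from the cortex (CTX) and from the medial, lateral and caudal ganglionic eminences (MGE, LGE and CGE, jointly GE), with 2 samples per region. All were labelled E12.5 except CTX replicate 2, which was labelled E14.5, so age and replicate cannot be told apart within CTX. No label says whether replicates came from separate litters, and p-values therefore measure only the spread between these samples.

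Cortical interneurons are born in the ganglionic eminences and migrate tangentially into the cortex. Cxcl12 attracts them through Cxcr4, a G protein-coupled receptor, while Ackr3 (also called Cxcr7) is an atypical receptor that binds and removes Cxcl12. Erbb4 is a receptor tyrosine kinase found on many MGE-derived interneurons, and the neuregulins Nrg1 and Nrg3 are its ligands. An accessible element is a stretch of open chromatin, such as a promoter or enhancer, and its count is no measure of the RNA.

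The 8 libraries held 39253 nuclei and between 77387940 and 138873845 counts in peaks, with medians of 14584 to 22209.5 counts per nucleus. Of 38362 barcode strings, 881 occurred in 2 or more libraries. At the locus of Nkx2-1, a factor of the MGE, the MGE samples had 413 and 291 CPM (for loci, counts scaled to the total over all loci) against 16.7 to 36.8 elsewhere, and at Emx1, a factor of the dorsal telencephalon, CTX had 96.7 and 136 CPM against 27.6 to 44.4. Nuclei were clustered without the member elements and named from marker genes. At a clustering resolution of 0.5 GE samples held 36.3% to 57.8% GABAergic-like and 32.2% to 52.4% progenitor-like nuclei. Glutamatergic-like nuclei made up 10.5% to 26.6% of the LGE and CGE samples but 0.278% and 1.76% of the MGE samples. At a resolution of 1.0 these shares were 5.66% to 13.0% and 0.161% and 0.519%. There 11.9% to 22.8% of the LGE and CGE nuclei were in unnamed clusters. The MGE comparisons are therefore also given within GABAergic-like nuclei. At a clustering resolution of 0.5 the library labelled E12.5 from CTX was 95.9% glutamatergic-like with 0 progenitor-like nuclei. At a resolution of 1.0 it was 76.4% glutamatergic-like, with 797 progenitor-like nuclei (19.4%). The library labelled E14.5 was 11.1% glutamatergic-like and 82.7% in unnamed clusters at the first resolution. Neurons accumulate in the cortex with age, and the higher glutamatergic-like share was in the library with the younger label at both resolutions, but most nuclei of the other library were unnamed. The 2 shares also come from different clusters. At resolution 0.5 the library labelled E12.5 had 2448 and 1488 nuclei in 2 glutamatergic-like clusters where that labelled E14.5 had 0. The latter had its 549 in another, shared with LGE and CGE, where the former had 2. GABAergic-like nuclei, which reach the cortex by migration, were 137 of 4108 (3.33%) in the library labelled E12.5 and 0 of 4946 in that labelled E14.5, which allows a share of up to 0.0607%. Both orders run against the age labels, that of glutamatergic-like nuclei across different clusters. Progenitor-like nuclei, which become fewer with age, were 19.4% and 0.0607% at resolution 1.0, an order that follows the labels. At resolution 0.5 they were 0 and 3 nuclei. However, 82.2% of the library labelled E14.5 was in unnamed clusters at resolution 1.0. The 0.0607% therefore counts named clusters only and does not fix that library's progenitor share. Whether the 2 labels were exchanged was not tested. Calls between CTX and GE are therefore also given without each CTX library. In whole samples, fewer nuclei of a type and less accessibility per nucleus cannot be told apart.

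Sequences are shown for 4 elements whose counts differed between regions or nuclear classes, and for the promoters of both chemokine receptors. Each intergenic or intronic window is the 200 bases at the middle of the stretch shared by most peaks, read from GRCm38.p6 on the forward strand. Promoters are the 250 bases before the RefSeq start, on the strand of the gene (GRCm38.p6). Capitals mark matches on either strand to 3 short motifs. The first is TAATTA, a core bound by many homeodomain proteins. The second is CAGCTG, one form of the E-box bound by basic helix-loop-helix proteins. The last is TGACAG, a core bound by TALE homeodomain proteins such as Meis. The windows are the Ackr3 upstream element (chr1:90189059-90189258), the Erbb4 intron element 965 kb into the gene (chr1:68142715-68142914), the Nrg1 intron elements 598 kb (chr8:32284600-32284799) and 502 kb (chr8:32382662-32382861) into the gene, and the promoters of Cxcr4 (chr1:128592300-128592549, minus strand) and Ackr3 (chr1:90203730-90203979, plus strand).
Ackr3 upstream: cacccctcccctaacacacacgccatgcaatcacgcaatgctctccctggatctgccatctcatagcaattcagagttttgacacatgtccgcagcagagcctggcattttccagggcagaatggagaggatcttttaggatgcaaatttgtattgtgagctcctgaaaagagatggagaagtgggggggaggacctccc
Erbb4 intron: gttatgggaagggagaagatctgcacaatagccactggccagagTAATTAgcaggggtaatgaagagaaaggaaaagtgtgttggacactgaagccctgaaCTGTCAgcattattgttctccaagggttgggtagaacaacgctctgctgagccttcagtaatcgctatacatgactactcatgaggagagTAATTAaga
Nrg1 intron at 598 kb: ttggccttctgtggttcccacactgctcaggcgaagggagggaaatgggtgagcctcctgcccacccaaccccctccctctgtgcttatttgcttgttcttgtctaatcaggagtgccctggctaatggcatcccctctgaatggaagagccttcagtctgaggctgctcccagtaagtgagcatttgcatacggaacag
Nrg1 intron at 502 kb: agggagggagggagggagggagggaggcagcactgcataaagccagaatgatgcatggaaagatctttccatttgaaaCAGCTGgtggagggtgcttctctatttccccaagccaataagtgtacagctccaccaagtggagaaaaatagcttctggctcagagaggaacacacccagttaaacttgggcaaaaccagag
Cxcr4 promoter: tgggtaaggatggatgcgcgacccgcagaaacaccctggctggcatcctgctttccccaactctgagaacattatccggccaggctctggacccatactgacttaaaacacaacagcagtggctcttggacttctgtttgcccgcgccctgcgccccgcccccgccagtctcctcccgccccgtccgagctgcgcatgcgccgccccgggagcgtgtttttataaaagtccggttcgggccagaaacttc
Ackr3 promoter: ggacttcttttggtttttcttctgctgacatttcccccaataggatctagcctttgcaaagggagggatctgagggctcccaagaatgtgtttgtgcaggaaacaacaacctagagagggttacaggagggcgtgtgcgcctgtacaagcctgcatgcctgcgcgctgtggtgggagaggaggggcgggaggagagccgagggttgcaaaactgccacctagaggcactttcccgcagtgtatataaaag
The Erbb4 window held the homeodomain core at 2 places and the TALE core at 1, and the Nrg1 window at 502 kb held the E-box at 1. Of all 68274 tested windows of the same length, 7.65% held the homeodomain core, 17.3% the E-box and 16.1% the TALE core. Neither promoter held any of the 3, which occurred in 4.84%, 13.0% and 15.9% of 32851 promoters of that length. GC content was 61.2% in the Cxcr4 promoter and 54.0% in the Ackr3 promoter, against a median of 52.4%.

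Ackr3 was less accessible in CTX than in the eminences. Its start-site element (chr1:90201634-90209809) had 40.8 and 42.2 CPM (counts scaled to the total in tested elements) in the CTX samples. It had 113.6 and 100.8 CPM in MGE, 86.7 and 93.4 in LGE, and 80.1 and 84.8 in CGE. Both CTX samples lay below all 6 GE samples. The log2 fold of CTX over GE was -1.10 ± 0.13 (SE), with an adjusted p of 0.0038 in edgeR's quasi-likelihood test. It remained called without any one library, at log2 folds of -1.14 to -1.04, and was -0.73 (adjusted p = 0.011) after an offset for the length each sample's peaks covered. An element 14.4 kb upstream (chr1:90188341-90190824) had 5.3 and 1.5 CPM in CTX against 14.8 to 37.9 in GE, a log2 fold of -2.81 ± 0.50 (adjusted p = 0.013). It was called in all 8 fits that left out a library.

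Cxcr4 had a single element in every sample, over its start sites (chr1:128589663-128596460), which held 98.1% to 100% of the counts of the locus. Its levels were 74.0 and 73.9 CPM in CTX, 61.0 and 57.5 in MGE, 64.3 and 57.1 in LGE, and 63.0 and 49.2 in CGE. CTX lay above every GE sample, by a log2 fold of 0.39 ± 0.11 that did not pass the test (adjusted p = 0.058, 95% interval 0.17 to 0.61). Without either CTX library the fold was 0.43 (adjusted p = 0.093) or 0.39 (adjusted p = 0.12). Between MGE and LGE the log2 difference was -0.00 with an interval of -0.28 to 0.27. The Cxcl12 start-site element ranged from 22.2 to 29.0 CPM. CTX and CGE overlapped each other and the other regions, while MGE (22.8 and 23.2) lay below LGE (26.45 and 25.8). The log2 fold of CTX over GE was 0.12 ± 0.15 (adjusted p = 0.67). Leaving out CTX replicate 1 gave -0.043 and leaving out CTX replicate 2 gave 0.29, neither past the test.

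**Figure D1:**
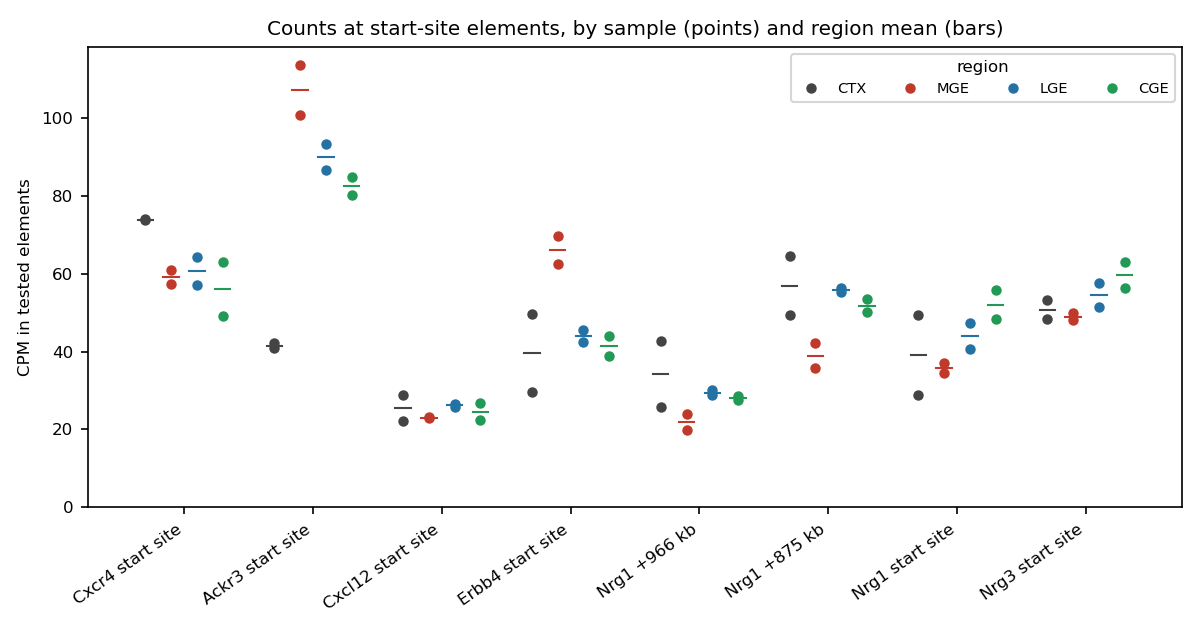
CPM of the elements over annotated start sites, with 1 point per sample and a bar at each region's mean (n = 2). Ackr3 sits at 40.8 and 42.2 in CTX and at 80.1 to 113.6 in the eminences, and Erbb4 is highest in the 2 MGE samples; Nrg1 has 3 such elements, labelled by distance from the gene start.

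Erbb4 elements were called between regions in introns and not at the start site. The start-site element, which also overlaps the non-coding gene Gm16076, had 62.4 and 69.8 CPM in MGE, above the 38.8 to 45.6 CPM of LGE and CGE and the 29.7 and 49.7 of CTX. The log2 fold over LGE was 0.62 ± 0.24 (adjusted p = 0.32) and over CGE 0.75 ± 0.24 (adjusted p = 0.25), neither past the test. Between CTX and GE it was called only when CTX replicate 2 was left out (log2 -0.69, adjusted p = 0.015). In all, 3 intron elements were called higher in CTX. The one 1002 kb into the gene had 12.3 and 14.1 CPM in CTX against 0.17 to 4.0 in GE (log2 2.80 ± 0.68, adjusted p = 0.035), and its covered length ranged from 121 bp in MGE replicate 1 to 2277 bp in CTX replicate 1. The one at 234 kb had 15.7 and 29.9 CPM in CTX against 4.5 to 14.52 in GE (log2 1.37 ± 0.34, adjusted p = 0.039). The one at 965 kb had 17.4 and 11.8 CPM in CTX, within the 9.1 to 19.5 of LGE and CGE and above the 1.2 and 2.2 of MGE. Its log2 fold over the mean of the 3 eminences was 1.16 ± 0.28 (adjusted p = 0.033). The call at 1002 kb held in 4 of 8 fits that left out a library and was lost without any one LGE or CGE sample. The other two held in 2 of 8, and were lost also without CTX replicate 1 (at 965 kb) or CTX replicate 2 (at 234 kb).

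Among the neuregulins, 3 Nrg1 introns and 1 Nrg3 intron were called higher in CTX. The Nrg1 element at 598 kb had 29.5 and 28.7 CPM in CTX, 2.9 and 5.0 in MGE, 26.6 and 23.4 in LGE, and 25.2 and 17.7 in CGE. CTX lay above every GE sample (log2 1.24 ± 0.22 over the mean of the 3 eminences, adjusted p = 0.013). The call held in 8 of 8 fits without a library, and both MGE samples lay below all others. Per covered kb CTX had 10.95 and 10.2 CPM, within the 8.48 to 13.4 of LGE and CGE, and MGE had 3.44 and 3.68. The Nrg3 element at 648 kb had 24.0 and 15.4 CPM in CTX against 1.6 to 7.8 in GE (log2 1.98 ± 0.36, adjusted p = 0.013), a call lost without CGE replicate 2. A further Nrg1 element, at 184 kb, had 8.4 and 4.5 CPM in CTX against 0.72 to 3.4 in GE (log2 1.497 ± 0.40, adjusted p = 0.047). That call held in 2 of 8 fits without a library. Its peaks covered 1542 and 1266 bp in CTX against 201 to 947 bp in GE. Per covered kb CTX had 5.44 and 3.53 CPM, within the 3.06 to 5.97 of GE. The remaining Nrg1 element, at 825 kb, had 9.6 and 11.8 CPM in CTX. This overlapped LGE (10.96 and 11.1) and CGE (9.8 and 6.4), while MGE had 2.0 and 2.6. The start-site elements of Nrg1 and Nrg3 were not called in any contrast of whole samples, though without CTX replicate 1 those of Nrg1 at 966 kb (log2 0.80, adjusted p = 0.0087) and 875 kb (log2 0.52, adjusted p = 0.040) were called higher in CTX. In all, 9 of 45 member elements (20%) were called between CTX and GE, where 14.9% of all tested elements were called. Of these 7 were higher (background 9.49%) and 2 lower (5.39%). The members' median log2 fold was 0.39, against 0.03 over all elements. Without CTX replicate 1 the count was 14, or 31.1% of members against 24.2% of all elements. Without CTX replicate 2 it was 20, or 44.4% against 26.3%. With the covered-length offset 7 elements were called (15.6%, background 9.17%), among them 4 of the 9. With replicate number as a block 9 were called (background 13.7%), but not the Erbb4 element at 965 kb (adjusted p = 0.053) or the Nrg1 elements at 825 kb (adjusted p = 0.060) and 184 kb (adjusted p = 0.076). The count was 4 (8.89%) without CGE replicate 1 or either LGE sample, where 7.84% to 8.51% of all elements were called, and 3 (6.67%, background 6.26%) without CGE replicate 2.

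Among the eminences, 1 intron element of Erbb4 and 2 of Nrg1 were called less accessible in MGE. The Erbb4 element at 965 kb had 1.2 and 2.2 CPM in MGE, 12.9 and 9.1 in LGE, 19.5 and 14.9 in CGE, and 17.4 and 11.8 in CTX. Both MGE samples lay below all 6 others. The log2 fold was -2.67 ± 0.38 against LGE (adjusted p = 0.042) and -3.27 ± 0.39 against CGE (adjusted p = 0.038). The Nrg1 element at 598 kb was lower in MGE by the same comparisons, with log2 folds of -2.65 ± 0.30 (adjusted p = 0.031) and -2.37 ± 0.30 (adjusted p = 0.042). A further Nrg1 intron, at 825 kb, was called against LGE alone (log2 -2.24 ± 0.32, adjusted p = 0.042). Thus 3 of 45 elements were called between MGE and LGE (background 0.694%) and 2 between MGE and CGE (background 0.325%), all lower in MGE (backgrounds 0.488% and 0.275% in that direction). With the offset 3 and 1 were called (backgrounds 0.422% and 0.0659%), among them 2 of the 3 and 1 of the 2. Odd numbers were more frequent among the stored counts of every library numbered 1 (9.54% to 10.4%) than of those numbered 2 (5.17% to 5.85%), though no label names a batch. With replicate number as a block none of these calls held, at adjusted p of 0.060 to 0.071 against LGE and 0.070 and 0.075 against CGE, and 9 and 3 of all 68274 elements were called. These counts were 0 when any one GE sample was left out, as were those over all elements. When either CTX library was left out, 12 members (26.7%) were called against LGE, where the background was 10.3% or 10.1%, and 6 (13.3%) against CGE, where it was 9.06% or 8.87%. No element was called higher in MGE, though 12 of the 45 had a log2 fold above 0 in each of the 2 comparisons. The smallest p in that direction was that of the Nrg1 element at 502 kb against LGE (log2 2.67 ± 0.73, adjusted p = 0.16) and of the Ackr3 start site against CGE (0.45 ± 0.14, adjusted p = 0.24). Between LGE and CGE 0 elements were called by edgeR or DESeq2, and the background was also 0 by edgeR and 417 by DESeq2. By edgeR 1 member, the Nrg1 element at 502 kb, was at an unadjusted p under 0.05, as were 3264 of all 68274 elements.

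**Figure D2:**
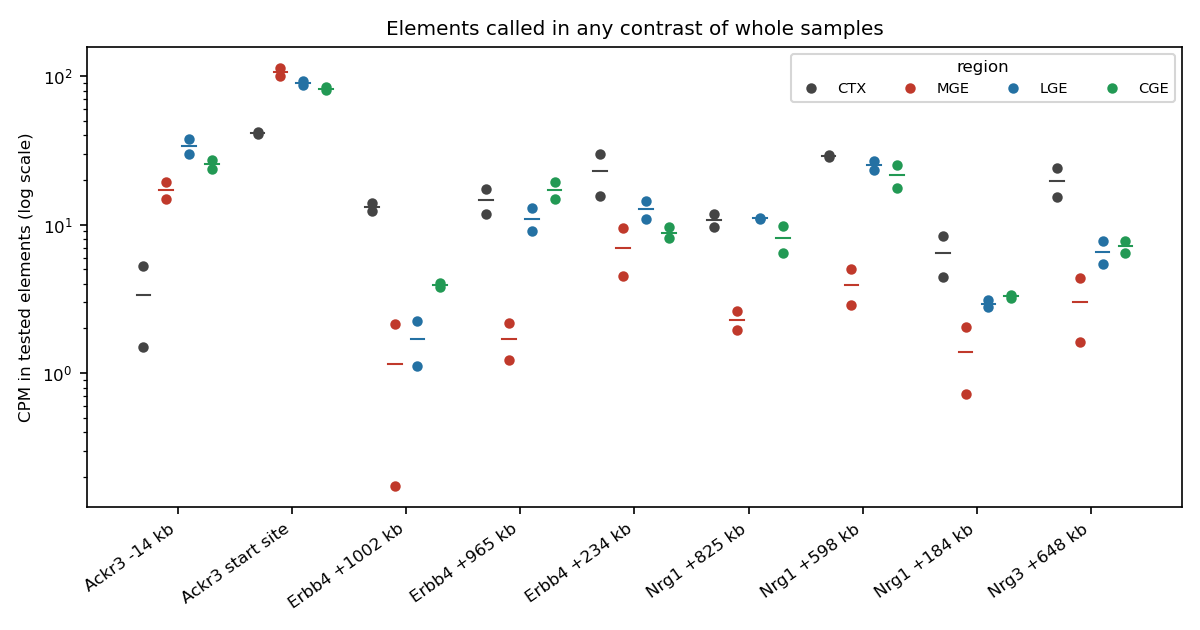
CPM on a log scale of the 9 member elements called in any contrast of whole samples, with 1 point per sample and a bar at each region's mean (n = 2). CTX is lowest at both Ackr3 elements, and MGE is lowest at the Erbb4 element at 965 kb and the Nrg1 element at 598 kb.

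The same comparison was made within GABAergic-like nuclei. This class was made of 3 clusters, of which 1 held most of its MGE nuclei and the other 2 most of its LGE and CGE nuclei. Between MGE and LGE, 17 of 45 elements were called, where 12.6% of all tested elements were called. Of these 3 were higher (background 5.39%) and 14 lower (7.19%). Between MGE and CGE there were 10 (background 8.1%), 1 higher (2.81%) and 9 lower (5.29%). With the covered-length offset 15 elements were called against LGE (33.3%, background 9.65%) and 11 against CGE (24.4%, background 6.3%), among them 14 of the 17 and 5 of the 10. At a clustering resolution of 1.0 the counts were 10 (22.2%, background 6.75%) and 7 (15.6%, background 3.98%), all among the 17 and the 10. At that resolution the MGE replicates split between GABAergic-like clusters. In 1 cluster lay 2726 nuclei of MGE replicate 1 and 165 of MGE replicate 2, and in another 83 and 1028. The count for MGE against CGE was 4 (8.89%) without CGE replicate 1 and 6 (13.3%) without CGE replicate 2, where the backgrounds were 1.54% and 2.56%. Between LGE and CGE 0 were called by edgeR and 2 by DESeq2 (background 1.94%). By edgeR 3 were at an unadjusted p under 0.05, as were 7086 of all 68252 elements. The smallest p values were those of the Nrg1 element at 502 kb (log2 -1.87 ± 0.38, adjusted p = 0.13) and, higher in LGE, of an Erbb4 intron at 929 kb (1.43 ± 0.37, adjusted p = 0.20).

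Of the 3 higher in MGE, an Nrg1 intron element at 502 kb had the largest fold. Scaled to the counts of the class in each sample, it had 23.8 and 41.05 CPM in MGE GABAergic-like nuclei, 2.6 and 5.4 in LGE, and 16.5 and 13.1 in CGE. The log2 fold over LGE was 3.07 ± 0.39 (adjusted p = 0.0022). Its peaks covered 1969 and 2842 bp in MGE but 395 and 1103 bp in LGE, and with the covered-length offset the fold was 1.25 (adjusted p = 0.0035). Over CGE the log2 difference was 1.198 ± 0.36 and did not pass (adjusted p = 0.079), but it was called with the offset (1.53, adjusted p = 0.0014) and by DESeq2 (adjusted p = 0.0099). Erbb4 introns at 359 kb (log2 2.09 ± 0.38, adjusted p = 0.0084) and 441 kb (log2 1.01 ± 0.26, adjusted p = 0.036) were also higher in MGE than in LGE. The call at 441 kb was lost in 4 of 6 fits that left out a library, where adjusted p reached 0.26, with the offset (log2 0.62, adjusted p = 0.14) and at resolution 1.0 (log2 0.61, adjusted p = 0.31). The element at 359 kb was called higher than in CGE too (log2 1.60 ± 0.37, adjusted p = 0.033), a call lost in 3 of 6 such fits and at resolution 1.0 (adjusted p = 0.098).

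Of the 14 elements lower in MGE than in LGE, 8 lay in Nrg1. The largest fold among them was that of the Nrg1 intron at 941 kb, with 0.28 and 4.9 CPM in MGE against 19.4 and 21.3 in LGE (log2 -3.04 ± 0.84, adjusted p = 0.046). Its peaks covered 116 and 1561 bp in MGE against 1562 and 1595 bp in LGE. Per covered kb, whole samples had 1.83 and 2.14 CPM in MGE against 6.27 and 5.79 in LGE. The call was lost in 4 of 6 fits that left out a library, by DESeq2 (adjusted p = 0.12) and at resolution 1.0 (adjusted p = 0.089). The Nrg1 intron at 979 kb had 1.0 and 1.8 CPM in MGE, 9.8 and 10.6 in LGE, and 8.9 and 11.5 in CGE, with log2 folds of -2.89 ± 0.34 and -2.86 ± 0.34. With the offset these were -1.80 and -1.41, both still called. A Cxcl12 exon element 7.55 kb into the gene had 0.83 and 1.9 CPM in MGE, 8.4 and 7.1 in LGE, and 5.0 and 4.6 in CGE. Its log2 fold was -2.54 ± 0.39 against LGE (adjusted p = 0.0044, and -1.09 with the offset). Against CGE it was -1.81 ± 0.39 (adjusted p = 0.025), a call lost in 3 of 6 fits without a library, with the offset (-0.39, adjusted p = 0.56) and at resolution 1.0 (adjusted p = 0.12). The Ackr3 upstream element had 7.4 and 3.2 CPM in MGE, below the 20.8 and 17.0 of LGE (log2 -1.79 ± 0.35, adjusted p = 0.012, called in 6 of 6 fits without a library), a call lost at resolution 1.0 (log2 -0.87, adjusted p = 0.41). An Nrg3 intron element at 59.6 kb had 2.5 and 4.0 CPM in MGE against 13.4 to 18.01 in LGE and CGE (log2 -2.37 ± 0.28 and -2.20 ± 0.28). The Erbb4 element at 965 kb was again low in MGE, at 1.0 and 1.4 CPM against 5.4 to 9.8. Among start sites, an Nrg1 one at 966 kb was called lower in MGE than in LGE (log2 -0.77 ± 0.21, adjusted p = 0.042), a call lost in 5 of 6 fits without a library and at resolution 1.0 (adjusted p = 0.066), and those of Cxcr4, Ackr3, Cxcl12, Erbb4 and Nrg3 were not called.

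**Figure D3:**
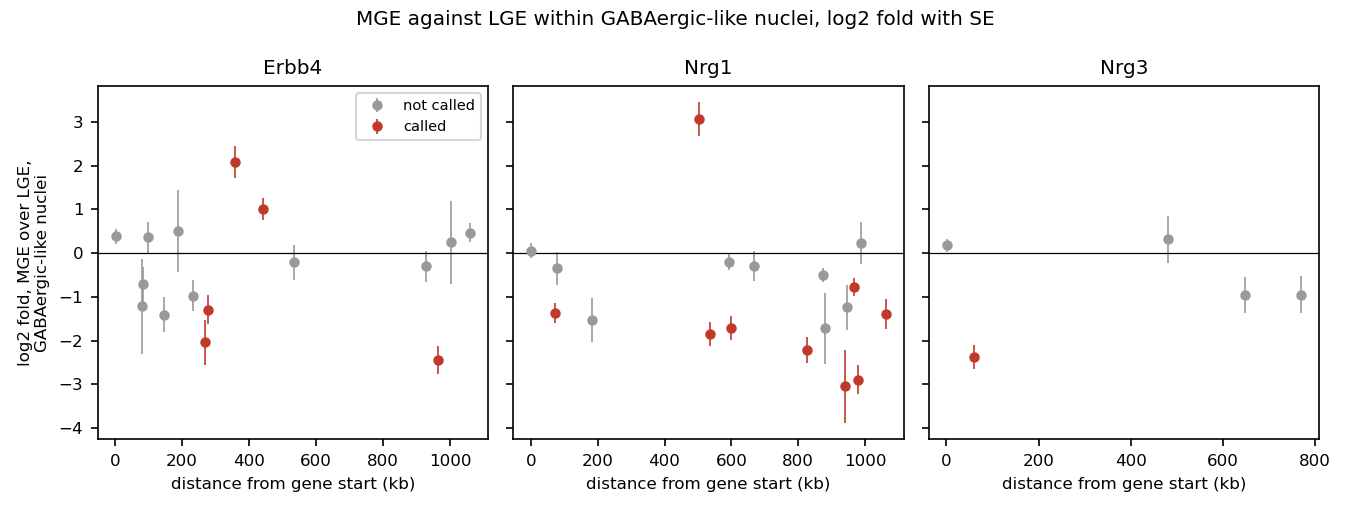
Log2 fold of MGE over LGE within GABAergic-like nuclei (2 samples each, bars are SE) against distance from the gene start for the tested elements of Erbb4, Nrg1 and Nrg3. Called elements, in red, are mostly below 0, with the Nrg1 element at 502 kb at 3.07.

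Within the eminences, progenitor-like and GABAergic-like nuclei of the same sample were compared at the 45 elements. The Cxcr4 start site was higher in progenitor-like nuclei in 6 of 6 samples, at 60.4 to 71.8 CPM against 36.1 to 54.5. The Ackr3 upstream element was also higher in progenitor-like nuclei in 6 of 6, at 22.8 to 54.4 against 3.2 to 20.8, while the Ackr3 start site was at 75.8 to 110.4 and 94.6 to 121.5. The Erbb4 start site was higher in progenitor-like nuclei (46.3 to 86.9 against 36.3 to 54.1), but its intron at 97.9 kb was higher in GABAergic-like nuclei (7.8 to 18.2 against 1.6 to 4.8). Of the 45 elements, 14 were higher in progenitor-like and 16 in GABAergic-like nuclei in all 6 samples, or 31.1% and 35.6%. Over all 68274 elements these shares were 22.5% and 30.7%. The members higher in progenitor-like nuclei included 6 of Erbb4 and 6 of Nrg1, and those higher in GABAergic-like nuclei were 5 of Erbb4, 8 of Nrg1 and 3 of Nrg3. The nuclei of both classes share their library, and no test was made.

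The library labelled E12.5 from CTX held 137 GABAergic-like nuclei, all in the cluster that held most of the GABAergic-like MGE nuclei. They were shallow, with a median of 3515 counts against 22736 in the glutamatergic-like nuclei of that library. At the Ackr3 start site they had 201 counts, or 267 CPM (exact Poisson 95% interval 231 to 306, counting error only). This was above the 94.6 to 121.5 CPM of GABAergic-like nuclei in the 6 GE samples and the 39.1 CPM of the glutamatergic-like nuclei around them. At the Ackr3 upstream element they had 0 counts, where a floor of 3 counts is 3.98 CPM. The Nrg1 element at 502 kb was at 51.8 CPM (36.8 to 70.7). GABAergic-like nuclei of GE had 2.6 to 41.05 there, and the glutamatergic-like nuclei of the same CTX library 19.4. The Cxcr4 start site was at 78.3 CPM (59.6 to 101), against 36.1 to 54.5 and 74.1 in those 2 classes. With a single library holding such nuclei, these values have no replicate check, and the part of depth in them was not tested.

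**Figure D4:**
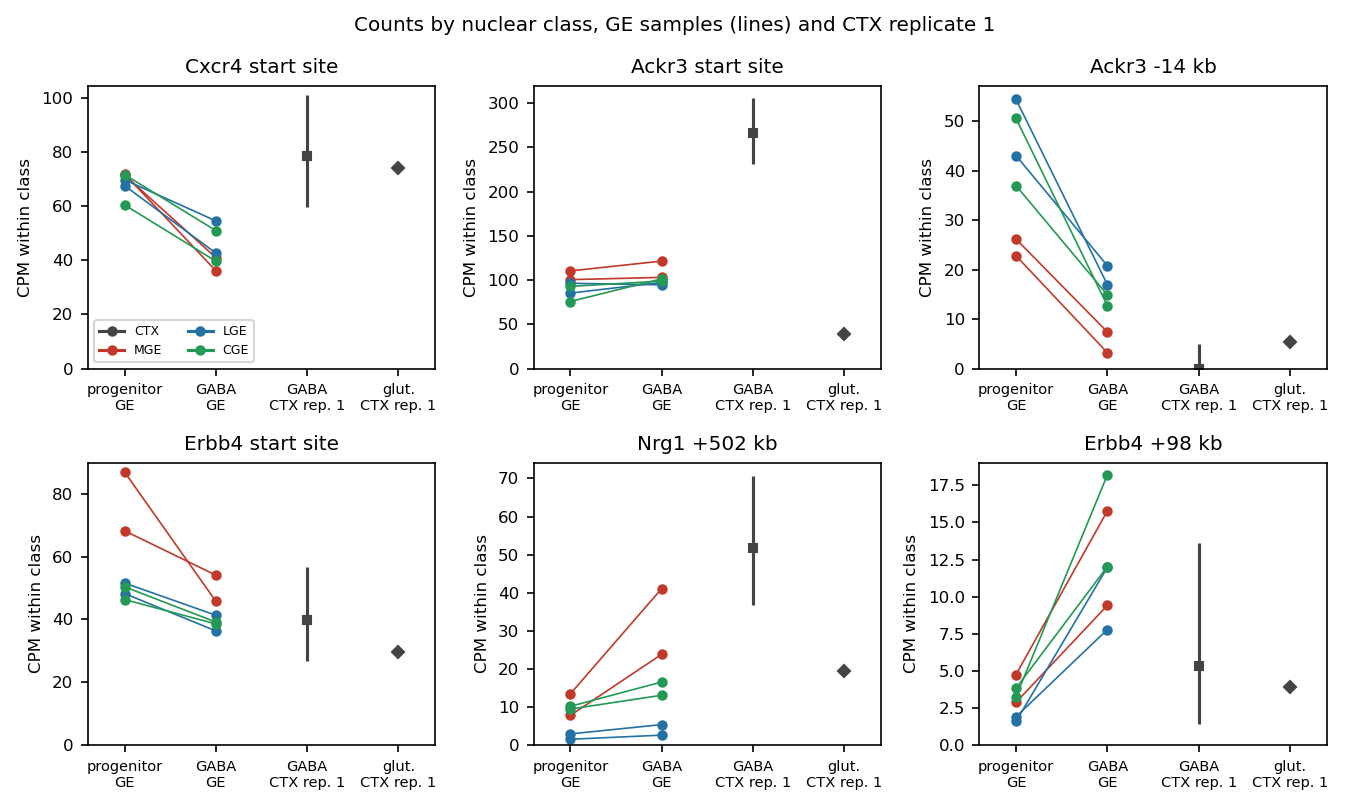
CPM within nuclear classes at 6 elements. Lines join the progenitor-like and GABAergic-like nuclei of each GE sample, the square is the 137 GABAergic-like nuclei of CTX replicate 1 with its Poisson interval, and the diamond its glutamatergic-like nuclei; the square for the Ackr3 start site, at 267, lies above all others.

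As a share of nuclei with at least 1 count, the Ackr3 start site was found in 32.1% (95% exact interval 30.6 to 33.5) and 26.5% of CTX nuclei and in 42.7% to 50.6% of GE nuclei. Thinned to 5000 counts per nucleus, the shares were 12.4% and 14.2% in CTX and 24.9% to 33.2% in GE. In the CTX library labelled E12.5 it was found in 38.7% (30.5 to 47.4) of GABAergic-like and 31.7% (30.2 to 33.2) of glutamatergic-like nuclei, and after thinning in 52.2% and 11.8%, with 82 of the 137 GABAergic-like nuclei too shallow to enter. For Cxcr4 the thinned shares were 14.9% to 21.9% over the 8 samples.

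The elements without a peak in every sample did not enter the main tests and are given by their presence. A fit of eminence samples only took the 60 elements with a peak in all 6 GE samples. Of the 373, 152 were called in 1 sample only (40.75%, against 36.2% of all elements). A further 176 were called in 2 to 7, where this held for 118237 of all 292495 elements. The 45 with a peak in all 8 made up 12.1%, against 23.3% of all elements. Peaks in both CTX samples and no GE sample made up 13 of the 373 (3.49%, against 3.14% of all elements). Peaks in all 6 GE samples and no CTX sample made up 9 (2.41% against 0.790%), 5 in Nrg1, 2 in Erbb4 and 1 each in Ackr3 and Nrg3. Of these 9, the Ackr3 element and 1 of Nrg1 had a peak with 0 counts in 1 LGE sample, and 7 had counts in all 6 GE samples (1.88% against 0.775%). Peaks in both MGE samples and nowhere else were 4 (1.07% against 0.610%), of which 3 lay in or upstream of Erbb4. Peaks in all 4 LGE and CGE samples and in neither MGE sample were 11 (2.95% against 1.66%), 6 in Nrg1, 4 in Nrg3 and 1 in Erbb4. The number of elements of the 6 loci with a peak ranged from 83 in MGE replicate 1 to 210 in CTX replicate 1 and CGE replicate 2. Over all elements those libraries had 99763, 175714 and 175251, and the lowest was 95118 in LGE replicate 1.

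Summed over each locus, Ackr3 and Nrg3 were called between CTX and GE, 2 of 6 where the background was 5.46% (4.49% higher and 0.979% lower). On the scale of loci, which differs from that of elements, the Ackr3 locus had 39.5 and 36.7 CPM in CTX against 91.5 to 120.4 in GE (log2 -1.36 ± 0.14, adjusted p = 0.0051). The Nrg3 locus had 195.1 and 148.6 CPM in CTX against 46.6 to 119.3 in GE (log2 1.06 ± 0.18, adjusted p = 0.0195). The Nrg3 call was lost without CTX replicate 1, LGE replicate 2 or CGE replicate 2, which left 1 locus called. Peaks covered 38.9 and 22.6 kb of Nrg3 in CTX and 7.14 to 30.5 kb in GE, and with the covered-length offset neither locus was called (log2 -0.67, adjusted p = 0.12, and 0.21, adjusted p = 0.69). Erbb4 (log2 0.76 ± 0.19, adjusted p = 0.060), Nrg1, Cxcr4 and Cxcl12 did not pass by edgeR. By DESeq2, Erbb4 (adjusted p = 0.00064), Nrg1 (adjusted p = 0.0086) and Cxcr4 (adjusted p = 0.030) were called higher in CTX, where 16.3% of all loci were called. Per covered kb, Ackr3 had 4.53 and 5.13 CPM in CTX, where it was the second lowest of the 6 members, and 5.84 to 11.1 in GE. Cxcr4 had 8.33 and 8.81 in CTX, the highest of the 6 there, and 5.84 to 9.23 in GE. Cxcl12 had 4.39 and 4.45 in CTX, the lowest of the 6 there, and 3.54 to 5.995 in GE. By edgeR 0 member loci were called between MGE and LGE (background 0.0484%), with 3 at an unadjusted p under 0.05 (1210 of all 18595 loci). Between MGE and CGE 0 were called (background 0.0645%), with 2 at that level (1282 of 18595) and 1 called by DESeq2. Between LGE and CGE 0 were called.

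**Figure D5:**
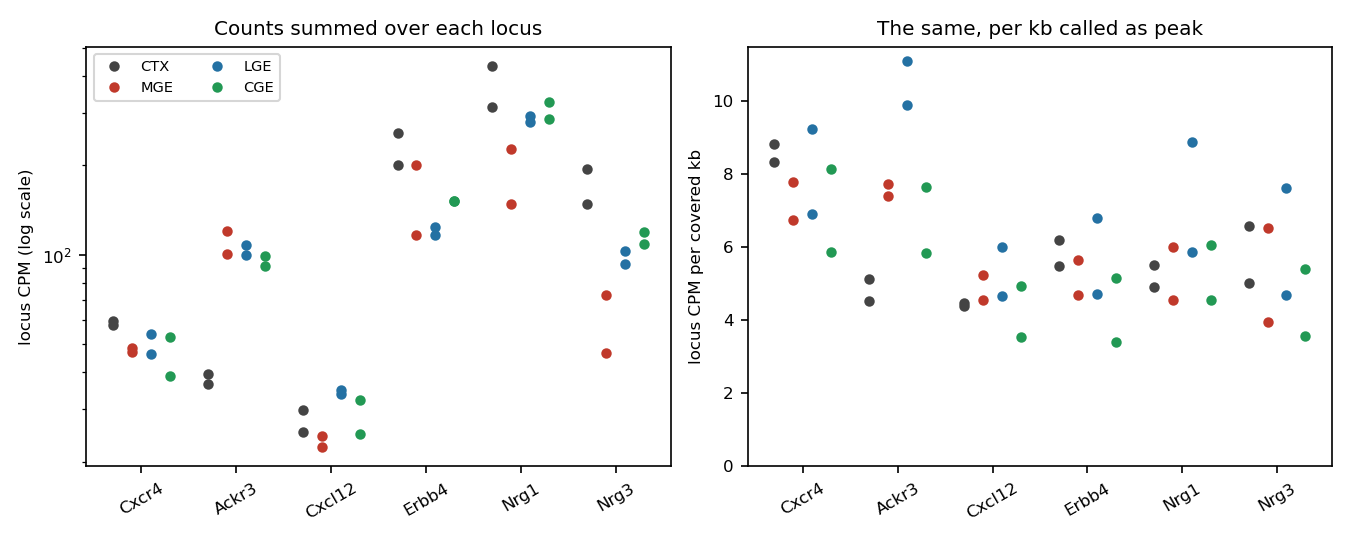
Counts summed over each locus, as CPM on a log scale (left) and as CPM per kb covered by peaks (right), with 1 point per sample. Ackr3 is lowest in CTX on both scales, while the CTX samples of Nrg3, highest at left, lie among the others at right.

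Among 4 lists of related genes, 5 of 59 loci (8.47%) were called higher in CTX than in GE and 0 lower, where 4.49% of all loci were called higher. Without CTX replicate 1 the count higher was 4 (6.78%, background 3.24%), with 1 lower, and without CTX replicate 2 it was 13 (22.03%, background 10.3%). With the covered-length offset 0 of the 57 that could be fitted were called, with 9 at an unadjusted p under 0.05. Over all 17436 loci 6 were called higher and 14 lower, with 2483 at that level. By list, 0 of 12 genes of the ErbB family were called by edgeR, with 4 at an unadjusted p under 0.05 (3702 of all 18595 loci). Of 14 chemokine system genes 2 were higher in CTX, the scavenging receptor Ackr4 (log2 1.45 ± 0.20, adjusted p = 0.012) and Cxcl16 (1.37 ± 0.28, adjusted p = 0.036). Of 16 signalling relays 1 was higher, the inhibitory G protein subunit Gnai1 (0.75 ± 0.14, adjusted p = 0.029). Of 17 other interneuron migration genes 2 were higher, the ephrin receptor Epha4 (0.64 ± 0.10, adjusted p = 0.017) and the repellent Sema3a (1.01 ± 0.21, adjusted p = 0.039). Ackr4 was called in 8 of 8 fits that left out a library and Epha4 in 4, which included those without a CTX library. Cxcl16 was lost in 6 of 8, among them the fit without CTX replicate 2 (adjusted p = 0.11), and Gnai1 in 5 of 8, among them the fit without CTX replicate 1 (adjusted p = 0.12). Sema3a was lost in 6 of 8, among them both fits without a CTX library (adjusted p = 0.096 and 0.055). With the covered-length offset the log2 folds were 0.34 for Ackr4, 0.60 for Cxcl16, -0.36 for Gnai1, 0.023 for Epha4 and 0.30 for Sema3a, with adjusted p of 0.38 to 0.97. Between eminences edgeR called 0 of the 59, with 6 at an unadjusted p under 0.05 in each comparison of MGE and 3 in that of LGE with CGE. Over the 8 samples, the loci whose log2 CPM followed Cxcr4 most closely were Tcf7l1, Cyp4f13 and Axl (Pearson r of 0.95 for each), and those that followed Erbb4 were Itgb6, Dcn (0.97 for both) and Dmrt1 (0.96), among 15607 genes. The points share depth and the number of peaks called per library.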

How the data were processed

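Single-nucleus ATAC-seq was measured in 8 samples. Per the labels' processing notes, the authors used Cell Ranger ATAC 1.2.0 and GRCm38 (mm10). The deposited matrices hold raw counts per peak and barcode, with peaks called separately in each sample, and all barcodes were kept. No doublet caller was run. The motif matrices were not used. Peaks that overlapped or abutted were merged, and each sample's counts were added up over its nuclei. The members and gene lists were chosen with earlier results of these data known. Named elements were the start-site elements and, per contrast, up to 3 called in each direction with the largest fold, or the one with the smallest p where none was called; others named were chosen after their values were seen. Named pathway genes were at most 3 per list.

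Elements with a peak in all 8 samples and loci (GENCODE vM21) were tested with edgeR 4.0.16 (TMM, filterByExpr, glmQLFit and glmQLFTest) in 1 model of 4 groups, with Benjamini-Hochberg adjustment over all features and calls at 0.05. GABAergic-like sums of the 6 GE samples were fitted likewise. The fit was tested on simulated data. Nuclei were clustered on 30 components of term-frequency weighted elements, with 20 neighbours and Leiden at resolution 0.5 (leidenalg 0.10.2), and clusters were named from the marker lists. Alternatives were DESeq2 1.42.0, no filter, a covered-length offset, nuclei with a count, a replicate block, omission of each sample, eminence samples only, other locus windows and resolution 1.0. Intervals and floors cover counting error only.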

Additional observations from a re-analysis of the deposited data

How the results depend on the processing

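Counts of called members are given with the share of all features called at the same setting. Ranges over fits that left out 1 library are the exception. In each of them that share changed too. It was largest in a fit with the largest member count and smallest in a fit with the smallest. These ranges therefore do not describe the members alone. With DESeq2 the element counts were 15 (CTX against GE, background 23.1%), 6 (MGE against LGE, 7.39%) and 4 (MGE against CGE, 6.87%), with the covered-length offset 1 for MGE against CGE (0.0659%), and with eminence samples only 15 and 8 of 60 elements for the MGE contrasts (11.1% and 9.56%). Loci called between CTX and GE were 5 with DESeq2 (16.3%), 0 with the offset (0.115%) and 1 with start sites only (1.29%), where Nrg3 reversed to a log2 fold of -0.010, and DESeq2 called 1 locus between MGE and CGE (2.93%). In GABAergic-like nuclei DESeq2 called 16 for MGE against CGE (12%) and 2 for LGE against CGE (1.94%), and resolution 1.0 gave 10 for MGE against LGE (6.75%). The cause of these changes was not tested. Leaving out 1 library gave 3 to 20 elements for CTX against GE. For MGE it gave 0 to 12 when compared with LGE and 0 to 6 when compared with CGE. It gave 1 to 3 loci for CTX against GE. In GABAergic-like nuclei the MGE counts were 12 to 22 (LGE) and 4 to 15 (CGE), and the count between LGE and CGE was 0 to 1. No label says that a replicate number marks a shared batch. Correlations of same-numbered deviations ran from -0.04 (MGE and CGE) to 0.42 (LGE and CGE), and the main model did not pair samples by number. Yet odd counts and clusters split by number. At resolution 0.5 a progenitor-like cluster held 2590 LGE and 1313 CGE nuclei of replicate 1 against 116 and 47 of replicate 2. Another held 235 and 64 against 2327 and 1400. Whether the number marks a batch was not tested. With the replicate block, 0 elements were called for either MGE contrast in whole samples (9 and 3 of 68274 over all elements), 9 for CTX against GE (13.7%), and 19 and 15 for the MGE contrasts in GABAergic-like nuclei (15.4% and 10.5%). Of 487 alternative values for the 43 calls of an element or locus in a contrast, 347 kept direction and call, 139 kept direction only and 1 reversed. With 2 samples per region, the spread rests on few libraries, and depth limits elements of a few CPM.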
